A study of Mus musculus with 42 samples.

Results

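The receptors described here are the REV-ERB and ROR nuclear receptors of the circadian clock, taken as the rows of the gene table named Nr1d1 (REV-ERBα), Nr1d2 (REV-ERBβ) and Rora (RORα). They are 3 of the 54532 genes in the table, and all 3 passed the filter on low values (a mean of at least 0.5 FPKM over the 42 libraries, passed by 16962 genes). Levels are given in FPKM, a read number divided by gene length and by a factor of the library. The length is that of all annotated exons together, at 3077 bases for Nr1d1, 5409 for Nr1d2 and 13071 for Rora. Which transcripts lung expressed was not examined, so levels set side by side between genes depend on these lengths. The receptors were measured in lung RNA of wild-type C57BL/6J mice in 14 groups of 3 libraries. The 7 SD groups came from mice held in sleep deficiency (SD) cages, and the 7 Ctrl groups from mice in home cages. Each housing lasted 20 h a day for 2 days, from clock hour 14 to clock hour 10, with free feeding; age and sex are not among the labels. Lungs were then collected each 4 h from ZT0 (clock hour 8, lights on) past ZT12 (lights off) to ZT24, and these hours do not settle whether ZT0 came before the end of the last cage period. SD always names the cage group below, and standard deviations are written out.

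The 3 libraries of a group are labelled as biological replicates, without saying whether each is 1 animal or a pool. P-values therefore measure only the spread between these libraries, which may be technical. Recovered depth was 25285525 to 29790252 reads per library. The lowest read number behind a value of Nr1d1 was 124 reads (95% Poisson interval 103.1 to 147.8, counting error only), in a Ctrl library at ZT20. Nr1d2 had at least 434 reads and Rora at least 976 reads in each library. Summed markers of cell types differed between the conditions as well, and no marker listed was at 0 in all libraries. In the mean over times, where 34.6% of all tested genes were called higher in SD and 35.3% lower, the lists with the largest medians were mucous airway (5 of 5 lower, median log2 -2.01; 4.51 to 170.1 FPKM over the SD groups and 10.6 to 724 FPKM over the Ctrl groups), B cell (4 of 4 lower, -1.39; 22.9 to 73.1 FPKM in SD and 57.8 to 219 FPKM in Ctrl) and neutrophil (4 of 4 higher, 1.05; 521 to 1222 FPKM in SD and 218 to 884 FPKM in Ctrl). Cardiac muscle (7 of 7, -0.89), NK cell (4 of 4, -0.83), T cell (6 of 6, -0.71), plasma cell (5 of 5, -0.62), erythroid (4 of 4, -0.35) and ciliated markers (4 of 4, -0.19) were lower. Mesothelial (4 of 4, 0.59), alveolar macrophage (4 of 4, 0.46), alveolar type 1 (4 of 5, 0.29) and endothelial markers (5 of 5, 0.21) were higher. Club cell markers were mixed, with 2 of 3 higher and 1, Scgb3a2, lower (median 0.67). Fibroblast markers were mixed too, with 3 of 5 higher and 2 lower. At ZT20 club cell markers summed to 93730 FPKM in SD and 45960 FPKM in Ctrl. Markers of group 2 innate lymphoid cells, which need RORα, summed to 15.7 to 26.6 FPKM in SD and 16.1 to 26.8 FPKM in Ctrl, and 1 of the 6 tested was called higher and 3 lower. Alveolar type 2 markers, which define lung, summed to at least 21560 FPKM in SD and 18030 FPKM in Ctrl. In bulk lung, a change in the number of cells of a type and a change in RNA per cell cannot be told apart, and the part of cell makeup in the results below was not tested.

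REV-ERBα and REV-ERBβ are heme-binding transcriptional repressors that recruit a corepressor complex with the deacetylase HDAC3 to a DNA element called the RORE. RORα binds the same element and activates transcription through coactivators. Among the targets of this opposition is Arntl, which encodes BMAL1, and the BMAL1 and CLOCK pair in turn drives Nr1d1 and Nr1d2 through E-boxes, closing a feedback loop. In lung, REV-ERBα is known to restrain inflammatory responses of airway epithelium and macrophages, and RORα is required for group 2 innate lymphoid cells.

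Nr1d1 (ENSMUSG00000020889) lies on chromosome 11 at 98767932 to 98775333, minus strand, in mm10. Its last exonic bases overlap the 3′ end of Thra, the thyroid hormone receptor α gene on the opposite strand, over 263 exonic bases, or 8.55% of the exonic length of Nr1d1. Nr1d2 (ENSMUSG00000021775) lies on chromosome 14 at 18204054 to 18239127, minus strand. Rora (ENSMUSG00000032238) spans 734461 bases of chromosome 9, from 68653786 to 69388246 on the plus strand, and its exons share 82 bases with the antisense gene Gm15511. No source used here says how strand was handled in counting, so reads of these overlaps cannot be told apart between the genes.

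The promoters of the 3 receptors are shown because Nr1d1 and Nr1d2 moved together over the day and Rora did not. Each window holds 250 bases before to 50 bases after the annotated start, from RefSeq on GRCm38.p6, and all 3 receptors had an entry. Both strands were searched for the E-box CACGTG, its variant CACGTT, the nuclear receptor core AGGTCA, the extended RORE (AGGTCA preceded by AANT, so that it contains AGGTCA), the D-box TTATGNAA and the glucocorticoid response core AGAACA. Matches are in capitals. The window of Nr1d1 is chr11:98775328-98775627 (minus strand), that of Nr1d2 chr14:18239057-18239356 (minus strand) and that of Rora chr9:68653536-68653835 (plus strand).
Nr1d1: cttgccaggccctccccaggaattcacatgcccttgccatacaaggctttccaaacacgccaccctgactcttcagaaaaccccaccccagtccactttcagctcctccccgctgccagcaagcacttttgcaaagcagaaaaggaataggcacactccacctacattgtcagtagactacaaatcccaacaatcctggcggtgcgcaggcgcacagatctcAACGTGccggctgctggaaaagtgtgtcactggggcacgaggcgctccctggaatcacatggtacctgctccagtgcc
Nr1d2: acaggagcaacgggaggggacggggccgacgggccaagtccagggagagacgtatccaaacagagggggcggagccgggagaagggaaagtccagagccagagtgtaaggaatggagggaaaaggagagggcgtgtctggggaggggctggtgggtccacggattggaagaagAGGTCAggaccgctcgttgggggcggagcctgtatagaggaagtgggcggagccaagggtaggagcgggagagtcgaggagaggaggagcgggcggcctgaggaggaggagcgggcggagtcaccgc
Rora: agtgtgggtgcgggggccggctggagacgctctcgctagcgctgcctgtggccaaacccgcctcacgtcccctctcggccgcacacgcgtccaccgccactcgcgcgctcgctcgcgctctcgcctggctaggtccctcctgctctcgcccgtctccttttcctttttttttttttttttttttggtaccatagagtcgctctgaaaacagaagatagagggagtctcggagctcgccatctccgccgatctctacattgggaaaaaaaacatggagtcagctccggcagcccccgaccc

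The Nr1d1 window held the E-box variant, read as AACGTG on its own strand, at -28 to -23 from the start. The Nr1d2 window held AGGTCA at -77 to -72. The Rora window held none of the 6 motifs. Of 32851 promoter windows of the same length, 4.68% held CACGTT, 16.3% AGGTCA, 7.15% CACGTG, 0.219% the extended RORE, 3.38% TTATGNAA and 19.0% AGAACA. These matches describe the letters of the windows only.

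Nr1d1 varied over a narrower range of levels across the day in SD lungs than in Ctrl lungs, with overlapping values at the peak and a higher trough in SD. The highest group mean was at ZT8 in both conditions, at 62.9 ± 3.0 FPKM in SD and 63.8 ± 3.7 FPKM in Ctrl (standard deviation, n = 3 each). The lowest was 6.00 ± 0.45 FPKM in SD, at ZT16, and 1.52 ± 0.05 FPKM in Ctrl, at ZT20. The highest mean was thus 10.5 times the lowest in SD and 42.1 times in Ctrl. Nr1d2 peaked broadly: in SD it stood at 33.9 ± 0.8 FPKM at ZT8 and 34.2 ± 1.5 FPKM at ZT12, with overlapping values, while in Ctrl it stood at 34.9 ± 2.2 FPKM at ZT8 and 27.4 ± 1.3 FPKM at ZT12, without overlap. Its highest mean was 5.37 times its lowest in SD and 10.9 times in Ctrl. Rora was lower and flatter, between 3.47 and 6.20 FPKM in SD (1.79 times) and between 2.93 and 3.55 FPKM in Ctrl (1.21 times).

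**Figure D1:**
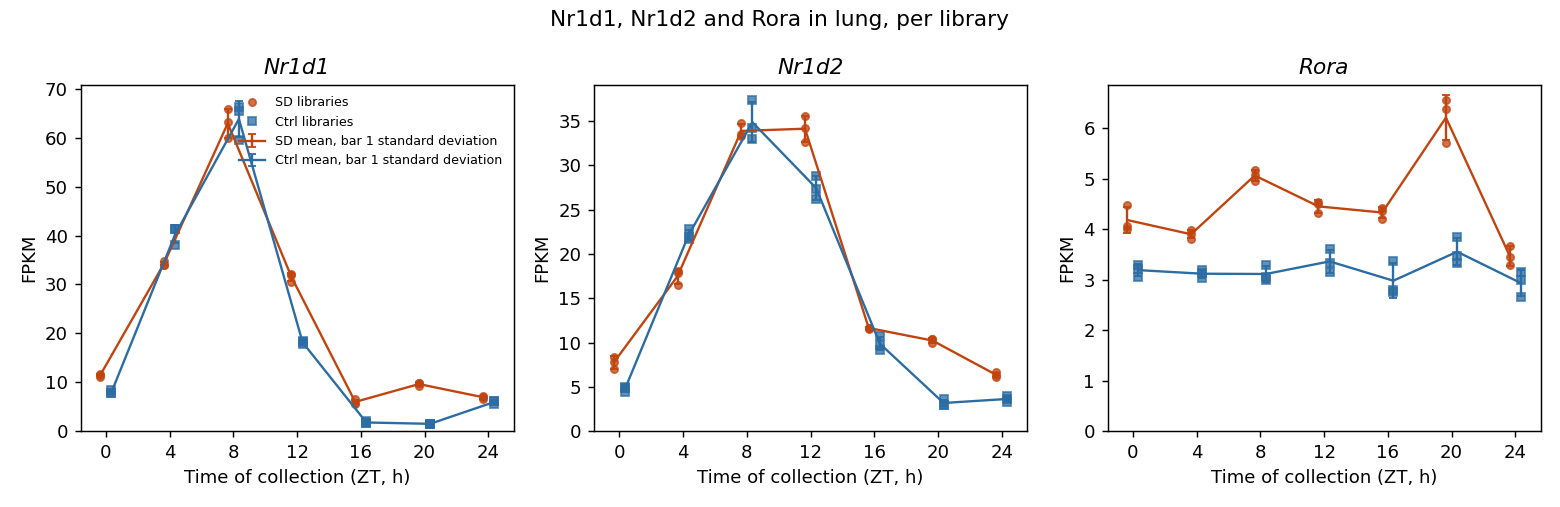
FPKM of Nr1d1, Nr1d2 and Rora (vertical axes) against time of collection (ZT, h) for each library, SD in orange circles and Ctrl in blue squares, offset sideways for sight; lines join group means and bars are 1 standard deviation (n = 3). Nr1d1 has its highest mean at ZT8 in both conditions, and Nr1d1 and Nr1d2 lie higher at ZT20 in SD (9.64 and 10.2 FPKM) than in Ctrl (1.52 and 3.19 FPKM), while Rora lies higher in SD at all 7 times.

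The first comparison asks how SD and Ctrl lungs differed at each time, tested with limma on log2(FPKM + 1) over all 16962 genes, where called means an adjusted p (Benjamini-Hochberg) under 0.05. On this scale a difference understates the ratio of genes near 0. At ZT20, Nr1d1 stood at 9.77, 9.21 and 9.96 FPKM in SD libraries, against 1.56, 1.47 and 1.52 FPKM in Ctrl libraries. Each SD value was thus far above each Ctrl value, and the ratio of means was 6.36. The log2 difference was 2.08 ± 0.05 SE (adjusted p = 2.54e-25), at a time when 33% of all tested genes were called higher and 33.7% had all SD values above all Ctrl values. At ZT16 the values were 5.87, 6.50 and 5.61 FPKM in SD and 2.14, 1.63 and 1.60 FPKM in Ctrl, again without overlap (log2 1.33, adjusted p = 4.27e-20; 29.1% of genes called higher, 31.1% above without overlap). At ZT12 they were 32.2, 31.8 and 30.6 FPKM in SD and 18.3, 18.3 and 17.8 FPKM in Ctrl (log2 0.76, adjusted p = 1.50e-13; 24.4% called higher, 28.5% above without overlap). In each of these 3 groups after the peak, Nr1d1 thus stood higher in SD than in Ctrl.

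In the light phase the sign of the Nr1d1 difference changed. At ZT4, Nr1d1 was lower in SD, with 34.7, 34.1 and 34.1 FPKM against 41.3, 38.1 and 41.3 FPKM in Ctrl (log2 -0.22, adjusted p = 0.00122; 20.1% of genes called lower, 25.7% below without overlap). At ZT8 the values overlapped, with 59.8, 63.1 and 65.9 FPKM in SD and 66.3, 59.6 and 65.6 FPKM in Ctrl, and the log2 difference of -0.02 ± 0.05 SE was not called (adjusted p = 0.784), where 56% of genes were called in either direction. At both ends of the day Nr1d1 was higher in SD without overlap. The difference at ZT0 (11.2, 11.6 and 11.7 FPKM in SD, 7.77, 8.36 and 7.80 FPKM in Ctrl) was log2 0.48 (adjusted p = 1.15e-08; 18% called higher, 22.1% above without overlap). The difference at ZT24 (6.66, 7.18 and 7.06 FPKM in SD, 6.09, 5.66 and 6.09 FPKM in Ctrl) was log2 0.20 (adjusted p = 0.00304; 24.4% called higher, 27.7% above without overlap). With libraries scaled to equal totals, the ZT24 difference was 0.12 and lost its call (adjusted p = 0.0705).

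Nr1d2 followed the same signs as Nr1d1 with other sizes. At ZT20 it stood at 10.4, 9.97 and 10.4 FPKM in SD, against 2.96, 3.62 and 2.99 FPKM in Ctrl, a ratio of 3.21 without overlap (log2 1.43 ± 0.06 SE, adjusted p = 3.32e-19). At ZT16 the gap was small, with 11.6, 11.7 and 11.7 FPKM in SD and 9.72, 10.7 and 9.21 FPKM in Ctrl (log2 0.22, adjusted p = 0.00317). The ZT16 libraries of the conditions did not overlap for Nr1d2, at a ratio of means of 1.18, beside 3.35 for Nr1d1. At ZT12 Nr1d2 stood at 32.7, 35.6 and 34.2 FPKM in SD and 26.2, 28.9 and 27.3 FPKM in Ctrl (log2 0.31, adjusted p = 0.000126). At ZT4 it was lower in SD, with 18.1, 16.5 and 17.9 FPKM against 21.7, 22.8 and 22.0 FPKM in Ctrl (log2 -0.33, adjusted p = 9.13e-05). At ZT8 its values overlapped (33.6, 34.8 and 33.3 FPKM in SD, 34.3, 37.4 and 33.0 FPKM in Ctrl; log2 -0.04, adjusted p = 0.628). It was higher in SD at ZT0 (log2 0.60, adjusted p = 1.86e-09) and ZT24 (log2 0.67, adjusted p = 1.84e-10). There the SD values of 7.02 to 8.43 FPKM at ZT0 and 6.14 to 6.63 FPKM at ZT24 lay above the Ctrl values of 4.42 to 5.03 FPKM and 3.28 to 4.01 FPKM.

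Rora was higher in SD at 7 of 7 times, with no overlap at any of them. By group means alone, 9.19% of tested genes were higher in SD at 7 of 7 times. The smaller share that also had no overlap at any time was not computed. Its widest gaps were at ZT20 and ZT8. At ZT20 it stood at 6.54, 6.37 and 5.70 FPKM in SD and 3.84, 3.34 and 3.47 FPKM in Ctrl (log2 0.66 ± 0.06 SE, adjusted p = 4.64e-12). At ZT8 it stood at 4.95, 5.07 and 5.16 FPKM in SD and 3.05, 3.30 and 2.99 FPKM in Ctrl (log2 0.56, adjusted p = 2.41e-10; 27.1% of genes called higher, 30.8% above without overlap). The differences at the other times were log2 0.31 at ZT0, 0.25 at ZT4 (19.2% of genes called higher, 24.1% above without overlap), 0.32 at ZT12, 0.42 at ZT16 and 0.19 at ZT24. The ZT24 difference was the weakest: SD values of 3.28 to 3.67 FPKM stood just above Ctrl values of 2.66 to 3.14 FPKM (adjusted p = 0.00619). It lost its call with libraries scaled to equal totals (log2 0.12, adjusted p = 0.0888), with only the 6 libraries of that time (log2 0.19, adjusted p = 0.0630) and without Ctrl-ZT24 replicate 2 (log2 0.13, adjusted p = 0.0661).

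**Figure D2:**
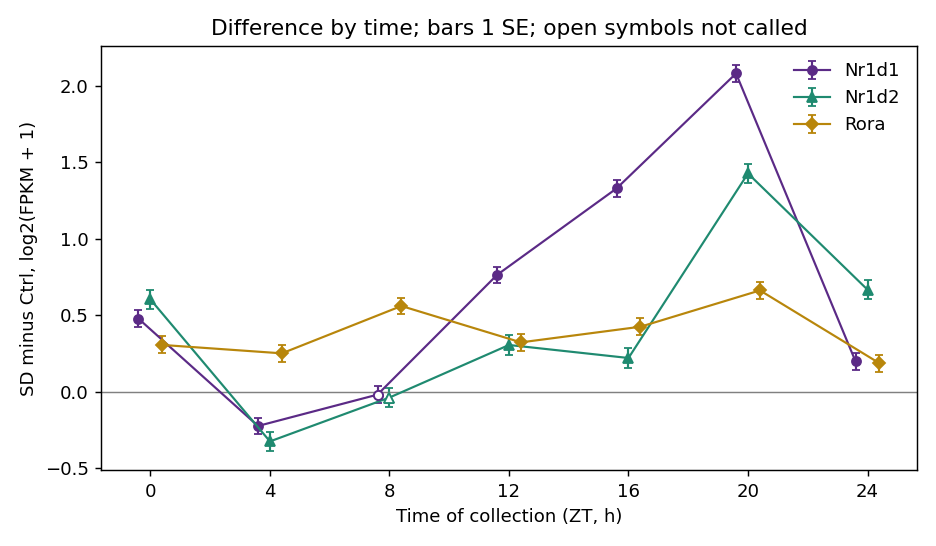
SD minus Ctrl difference in log2(FPKM + 1) (vertical axis) against time of collection (ZT, h) for Nr1d1, Nr1d2 and Rora, with bars of 1 SE from limma (3 libraries per group); open symbols were not called. Nr1d1 and Nr1d2 lie below 0 at ZT4 (-0.22 and -0.33) and highest at ZT20 (2.08 and 1.43), while Rora stays between 0.19 and 0.66.

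Averaged over the 7 times, each receptor was higher in SD by more than the spread between libraries. The log2 difference was 0.66 ± 0.02 SE for Nr1d1 (5 of 7 times higher, adjusted p = 9.03e-24), 0.41 ± 0.02 SE for Nr1d2 (5 of 7 times, adjusted p = 1.89e-16) and 0.39 ± 0.02 SE for Rora (7 of 7 times, adjusted p = 3.14e-17). Of all tested genes, 34.6% were called higher in this comparison and the median difference was -0.0033. With the 14 group means as units, Rora kept its call (adjusted p = 0.0112) while Nr1d1 (adjusted p = 0.111) and Nr1d2 (adjusted p = 0.1497) lost theirs. An exact two-sided sign-flip test over the 7 times gave p = 0.0938 for Nr1d1, 0.125 for Nr1d2 and 0.0156 for Rora, the last being the smallest it can give. Without ZT20, a time left out after the data were seen, the averages were 0.42 for Nr1d1 and 0.24 for Nr1d2, against 0.34 for Rora.

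The size of the SD minus Ctrl difference depended on the time for each receptor, by the F test of the 6 interaction contrasts in limma. The differences of Nr1d1 ranged over 2.31 log2 units (adjusted p = 4.95e-22), those of Nr1d2 over 1.75 (adjusted p = 3.16e-16) and those of Rora over 0.48 (adjusted p = 1.26e-05). Such a dependence was called for 81.7% of tested genes. By size of this range Nr1d1 stood 467th, Nr1d2 924th and Rora 11143rd of the 16962 genes.

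ZT0 and ZT24 are the same clock time 1 day apart, and levels at the 2 ends of the day were compared within each condition. Within SD, all 3 were lower at ZT24 than at ZT0, by log2 -0.65 for Nr1d1 (adjusted p = 3.15e-11), -0.25 for Nr1d2 (adjusted p = 0.00196) and -0.21 for Rora (adjusted p = 0.00282), where limma called 38.5% of genes in either direction and 18.2% lower. Within Ctrl, Nr1d1 (log2 -0.37, adjusted p = 5.57e-06) and Nr1d2 (log2 -0.31, adjusted p = 0.000553) were lower at ZT24, where 12.9% of genes were called and 5.97% lower. For Rora in Ctrl the difference was -0.09 (adjusted p = 0.312). Whether the day to day difference was larger in SD than in Ctrl was not tested.

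Daily rhythm was fitted in each condition as a cosine and a sine of 24 h over 21 libraries. Nr1d1 had an amplitude of 1.58 ± 0.14 log2 units in SD (adjusted p = 8.16e-07) and 2.54 ± 0.06 in Ctrl (SE; adjusted p = 6.64e-17). Its fitted peak was at 7.72 ± 0.31 h in SD and 6.86 ± 0.08 h in Ctrl. Nr1d2 had an amplitude of 1.13 ± 0.08 in SD (adjusted p = 1.26e-08), peaking at 9.74 ± 0.27 h, and 1.71 ± 0.07 in Ctrl (adjusted p = 1.76e-12), peaking at 8.99 ± 0.16 h. For Rora no 24 h rhythm was called: the amplitude was 0.13 ± 0.06 in SD (adjusted p = 0.365) and 0.03 ± 0.03 in Ctrl (adjusted p = 0.723). A rhythm was called for 9.2% of all genes in SD and 57.6% in Ctrl, and the median amplitude over all genes was 0.09 in SD and 0.14 in Ctrl. By amplitude Nr1d1 stood 8th of all tested genes in SD and 31st in Ctrl, and Nr1d2 stood 20th in SD and 91st in Ctrl. Without ZT20, a time left out after the data were seen, a rhythm of Rora in SD was called (amplitude 0.15, adjusted p = 0.0153). A one-way F test over the 7 times, which asks for no shape, also called Rora in SD (adjusted p = 2.07e-08).

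The rhythms of Nr1d1 and Nr1d2 differed between the conditions by the interaction of condition with the cosine and sine, in a test that called 30.3% of genes, 26.1% with a smaller amplitude in SD. The SD minus Ctrl difference in amplitude of Nr1d1 was -0.96 ± 0.16 log2 units, and its peak was 0.87 ± 0.29 h later in SD (SE; adjusted p = 1.15e-05). For Nr1d2 the difference in amplitude was -0.58 ± 0.11, and the peak was 0.76 ± 0.31 h later in SD (adjusted p = 0.000129). Rora was not called (adjusted p = 0.491). Of the genes rhythmic in Ctrl, 89% had a smaller fitted amplitude in SD. That set was chosen by its Ctrl rhythm, which by itself favours a larger amplitude in Ctrl. Over all tested genes the median amplitude was 0.09 in SD and 0.14 in Ctrl. With the 14 group means as units, the difference of rhythm was not called for Nr1d1 (unadjusted p = 0.0151, adjusted p = 0.354) or Nr1d2 (unadjusted p = 0.0337, adjusted p = 0.454). The cosine did not follow the SD course of Nr1d1 in full, since Nr1d1 stood higher at ZT20 (9.21 to 9.96 FPKM) than at ZT16 (5.61 to 6.50 FPKM) in SD and lower at ZT20 (1.47 to 1.56 FPKM) than at ZT16 (1.60 to 2.14 FPKM) in Ctrl.

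The sizes of the peak delays changed when single times were left out, each chosen after the data were seen except ZT24. The delay of Nr1d1 was 0.54 h without ZT24 and 1.53 h without ZT16. The delay of Nr1d2 was 0.43 h without ZT4, 1.78 h without ZT16 and 0.35 h without ZT20. Each of these values was a later peak in SD.

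**Figure D3:**
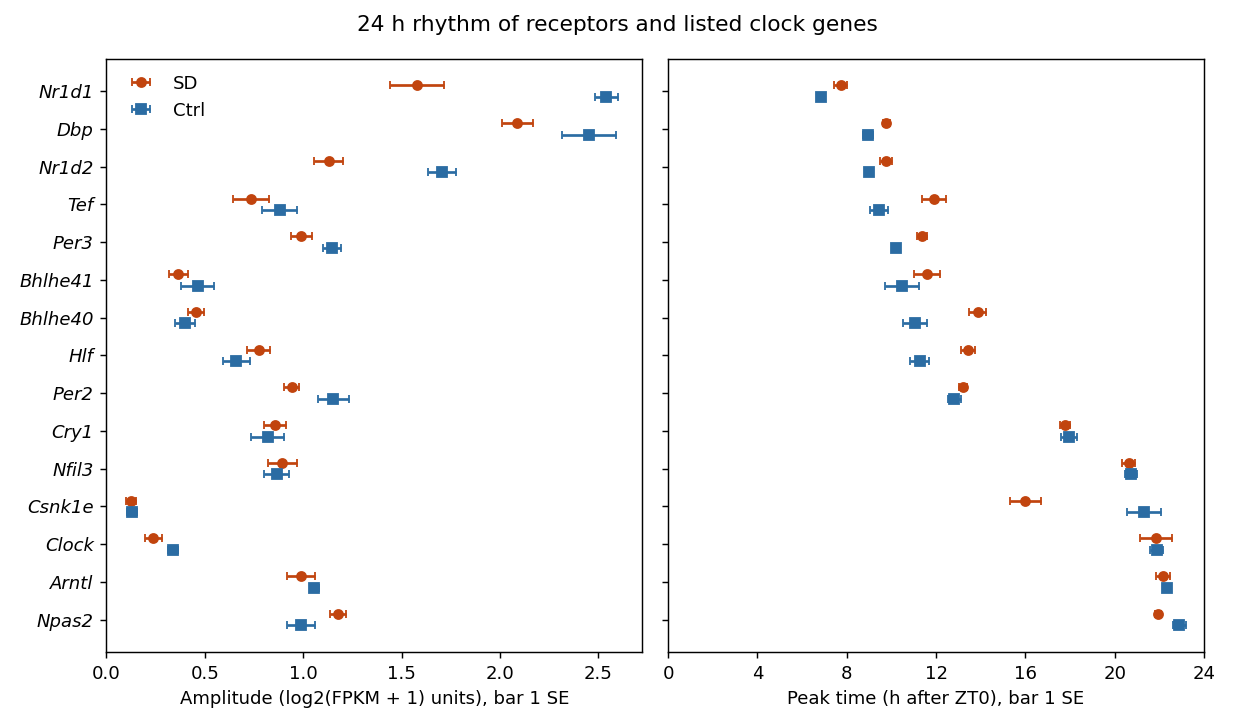
Amplitude in log2(FPKM + 1) units (left) and peak time in h after ZT0 (right) of the 24 h cosine in SD (orange circles) and Ctrl (blue squares), with bars of 1 SE, for Nr1d1, Nr1d2 and the 13 other clock genes of the lists that were called rhythmic in both conditions, in order of their Ctrl peak. Amplitude was smaller in SD for 10 of the 15 genes, among them Nr1d1 (1.58 and 2.54) and Nr1d2 (1.13 and 1.71).

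Levels per length also set the receptors against each other, though ratios between genes depend on the annotated exon lengths used. Nr1d2 exceeded Nr1d1 in each library at ZT12, ZT16 and ZT20 in both conditions, but by different factors. At ZT16 the ratio of Nr1d2 to Nr1d1 was 1.95 ± 0.14 in SD and 5.62 ± 1.01 in Ctrl (standard deviation, n = 3 each). Rora exceeded Nr1d1 in each library at 0 of 7 times in SD and at 2 of 7 times in Ctrl, ZT16 and ZT20. At ZT20 the ratio of Rora to Nr1d1 was 0.645 ± 0.064 in SD and 2.34 ± 0.11 in Ctrl.

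The summed REV-ERB level over Rora, a ratio of repressor to activator transcripts at the shared element, ran through a narrower course in SD. At ZT8 it was 19.1 ± 0.2 in SD and 31.8 ± 2.1 in Ctrl, with SD values (18.9 to 19.3) below Ctrl values (29.4 to 33.0). At ZT20 it was 3.22 ± 0.30 in SD and 1.33 ± 0.18 in Ctrl, with SD values (3.01 to 3.56) above Ctrl values (1.18 to 1.52). The highest mean ratio was 5.95 times the lowest in SD and 23.9 times in Ctrl. At ZT8 the REV-ERB sum itself was 96.8 ± 3.1 FPKM in SD and 98.7 ± 1.8 FPKM in Ctrl, while Rora was higher in SD. At ZT20 the sum was 19.9 ± 0.6 FPKM in SD and 4.71 ± 0.33 FPKM in Ctrl. These are transcript levels and say nothing of receptor protein.

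**Figure D4:**
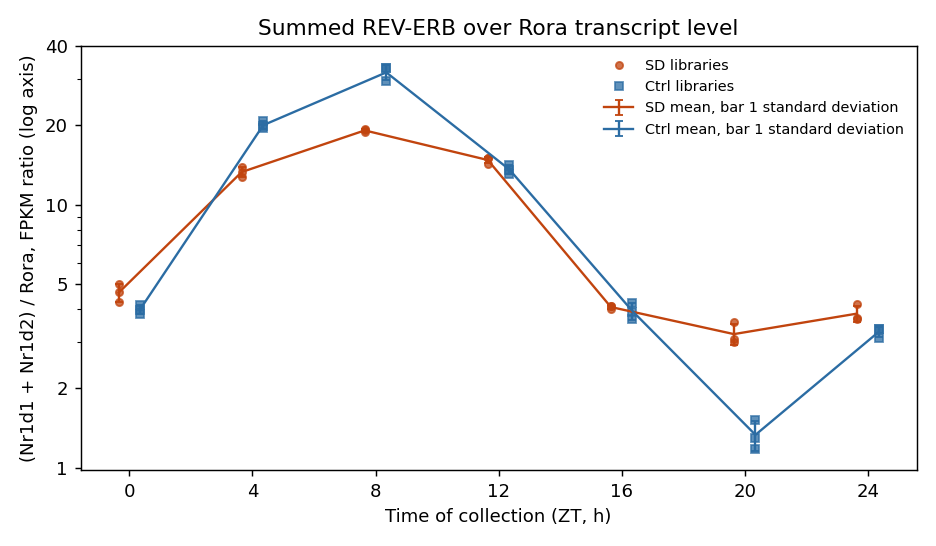
Ratio of summed Nr1d1 and Nr1d2 FPKM to Rora FPKM (log axis) against time of collection (ZT, h) for each library, SD in orange circles and Ctrl in blue squares, with group means and bars of 1 standard deviation (n = 3). The ratio spans 3.22 to 19.1 in SD and 1.33 to 31.8 in Ctrl.

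With the 14 groups ordered by mean Nr1d1, values of neighbouring groups overlapped for 2 of 13 neighbour pairs. These were SD-ZT8 with Ctrl-ZT8 at the top and SD-ZT16 with Ctrl-ZT24 further down. For Nr1d2 4 of 13 neighbour pairs overlapped and for Rora 10 of 13. The groups were ordered by these same values, and the share over all tested genes was not computed, so the counts only describe the order. The 6 highest groups of Rora were all SD groups, and SD-ZT24 fell among the Ctrl groups. Over the 14 group means of log2(FPKM + 1), each a mean of 3 libraries in which both genes share the depth, Pearson's r was 0.838 between Nr1d1 and Nr1d2, 0.202 between Nr1d1 and Rora and 0.230 between Nr1d2 and Rora.

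The genes most like each receptor over the 14 group means were taken by Pearson's r among the tested genes, leaving out predicted genes, pseudogenes and antigen receptor segments. For Nr1d1 they were Six4, a homeobox transcription factor (r = 0.924), Bbof1 (0.918), Rsad1 (0.905), Vill (0.889) and Tex11 (0.878), and the most opposite was Zdhhc18 (r = -0.878). For Nr1d2 they were Dbp, a PAR bZIP transcription factor of clock output (0.934), Per3, a period gene (0.906), Eef2k, the kinase of elongation factor 2 (0.883), Slc4a8 (0.861) and Mpc1, a subunit of the mitochondrial pyruvate carrier (0.858), and the most opposite was Leo1 (-0.929). For Rora they were Klhl29 (0.983), Carmil1 (0.977), Prpf18 (0.976), Sh3d21 (0.9754) and, just below it, Pmm1, and the most opposite was Far1 (-0.970). With 14 points and 16962 genes, such values describe likeness of pattern only.

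Thra, the gene that overlaps Nr1d1, was called higher in SD at ZT12 and ZT16, as Nr1d1 was. It was also called higher at ZT8, where Nr1d1 was not called. Thra was called lower at ZT20 and ZT24, where Nr1d1 was higher. At ZT20 it was lower in SD, at 20.2 ± 1.9 FPKM against 23.7 ± 1.4 FPKM in Ctrl (log2 -0.22, adjusted p = 0.00208), while Nr1d1 was higher. At ZT16 it was higher in SD, at 21.9 ± 0.2 FPKM against 13.9 ± 1.1 FPKM in Ctrl (log2 0.62, adjusted p = 1.63e-10). Its Ctrl peak was fitted at 1.41 h, away from that of Nr1d1. In Ctrl at ZT20, Nr1d1 stood at 1.52 FPKM beside 23.7 FPKM for Thra. The part that reads of their 263 shared exonic bases had in this low Nr1d1 level was not tested.

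Rorb, which encodes RORβ, a receptor best known from retina and brain, was near 0. It had group means of at most 0.0337 FPKM and was not tested.

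Arntl carries the extended RORE beside its start, which is why its promoter is shown. RefSeq gave 2 starts for Arntl, and the window of the downstream one, chr7:113207261-113207560 (plus strand, GRCm38.p6), held AAGTAGGTCA at 28 to 37 bases after the start, in capitals here. The window of the upstream start held none of the 6 motifs.
Arntl: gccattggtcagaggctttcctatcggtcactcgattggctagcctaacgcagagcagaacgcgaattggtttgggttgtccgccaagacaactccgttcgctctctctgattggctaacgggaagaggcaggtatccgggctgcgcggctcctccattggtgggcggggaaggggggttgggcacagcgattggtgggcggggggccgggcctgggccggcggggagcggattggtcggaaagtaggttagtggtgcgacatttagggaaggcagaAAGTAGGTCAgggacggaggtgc

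Of 13 genes listed as RORE or REV-ERB targets, 11 were tested, and Elovl3 and Il6 fell below the filter. The list came from prior knowledge but was drawn up with earlier results of these data known. Averaged over the times, 9 were called higher in SD (Arntl, Clock, Npas2, Cry1, Nfil3, Cidec, Il1b, Mmp9 and Nlrp3) and 2 lower, against 34.6% higher and 35.3% lower over all genes. With the 14 group means as units, none of these 9 kept its call (adjusted p from 0.0618 for Cry1 to 0.627 for Npas2), while Ccl2 and Cx3cr1 kept theirs. The average of Npas2 (log2 0.09) was also not called with a pseudocount of 0.1, with equal totals or without ZT20, and was -0.005601 without ZT16. That of Nlrp3 was not called with equal totals (adjusted p = 0.207), without ZT4 (0.123) or without ZT12 (0.467), and that of Nlrp3 (0.300) and Il1b (0.516) not with ZT0, ZT4 and ZT20 alone. Single times here were left out after the data were seen. The median of the 11 was 0.21, beside a median of all genes of -0.0033. At ZT20, when both REV-ERB transcripts were furthest above Ctrl, 7 of the 11 were called higher and 2 lower, where 33% of all genes were higher and 28.4% lower (median of the 11 0.36, all genes 0.02). At ZT24 none was called higher and 6 were called lower, where 24.4% were higher and 22.3% lower. Of these 6, Cry1 and Cidec lost their call when single libraries of that time were left out, Cry1 in 4 cases (adjusted p up to 0.132) and Cidec in 5 (up to 0.114), and without the filter on low values.

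Of the 11 targets, 3 had a called difference of rhythm, namely Npas2, Il1b and Mmp9, a share near the 30.3% of all genes. Arntl, whose protein pairs with CLOCK, had an amplitude of 0.99 ± 0.07 in SD and 1.06 ± 0.02 in Ctrl and peaked at 22.2 ± 0.3 h in SD and 22.3 ± 0.1 h in Ctrl. Its difference of rhythm was not called (amplitude difference -0.07 ± 0.08 SE, adjusted p = 0.672), beside amplitude differences of -0.96 for Nr1d1 and -0.58 for Nr1d2. At ZT20 Arntl stood at 6.33 ± 0.21 FPKM in SD and 4.87 ± 0.19 FPKM in Ctrl (log2 0.32, adjusted p = 1.59e-05), and at ZT8 at 1.37 ± 0.08 FPKM in SD and 0.752 ± 0.117 FPKM in Ctrl (log2 0.44). Its average over the 7 times was log2 0.21 higher in SD (adjusted p = 5.70e-10).

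Nfil3, a bZIP repressor that competes at D-boxes, reached 20.2 ± 1.2 FPKM in SD and 10.1 ± 0.6 FPKM in Ctrl at ZT20 (log2 0.94, adjusted p = 2.32e-11), and its difference of rhythm was not called (adjusted p = 0.955). Npas2, the paralog of Clock, stood at 5.88 ± 0.68 FPKM in SD and 4.08 ± 0.46 FPKM in Ctrl at ZT20 (log2 0.44, adjusted p = 4.72e-06). The rhythm of Npas2 differed between the conditions, with an amplitude of 1.18 ± 0.04 in SD and 0.99 ± 0.07 in Ctrl and a peak 0.96 ± 0.31 h earlier in SD (adjusted p = 0.0136). That difference was not called with equal totals (adjusted p = 0.0633), without ZT20 (0.0835) or with group means as units (0.705). Cry1, a repressor of CLOCK and BMAL1, stood at 19.5 ± 0.7 FPKM in SD and 15.0 ± 1.3 FPKM in Ctrl at ZT20 (log2 0.36), and for Clock the difference there was 0.12 (adjusted p = 0.0597).

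**Figure D5:**
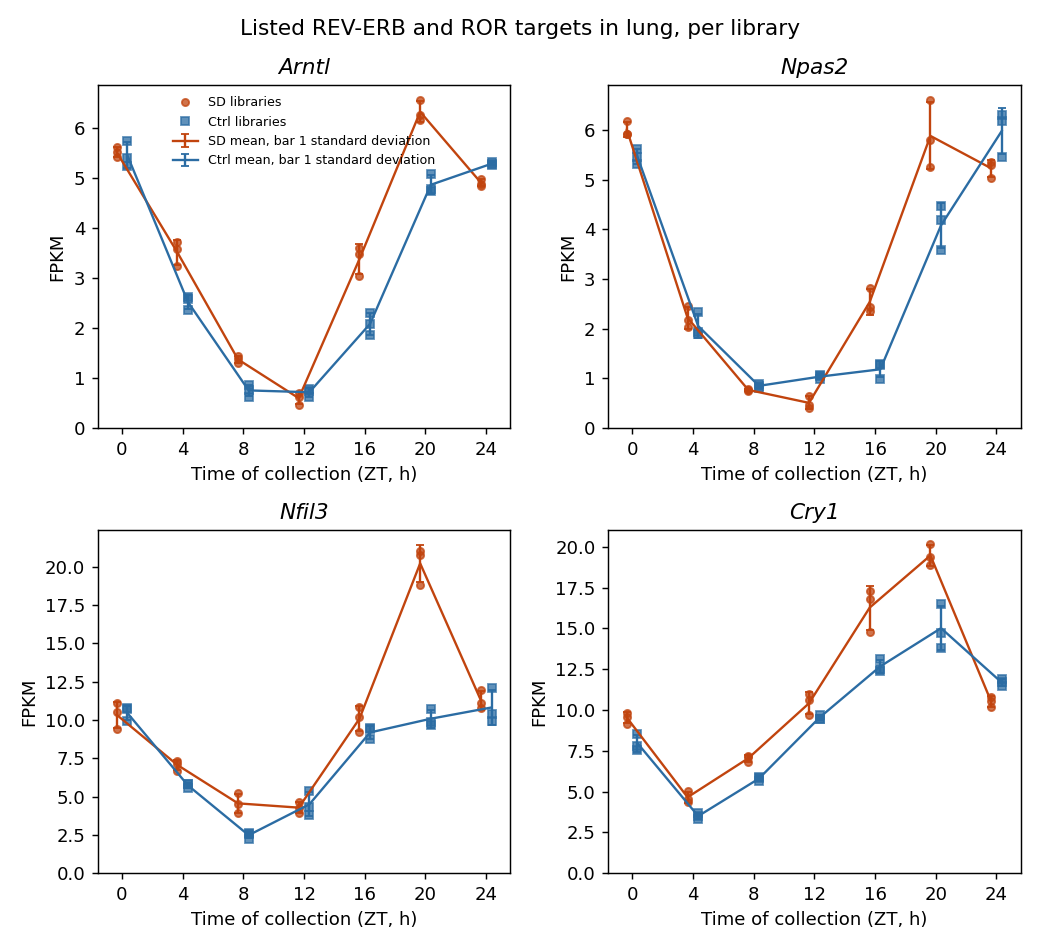
FPKM of Arntl, Npas2, Nfil3 and Cry1 (vertical axes) against time of collection (ZT, h) for each library, SD in orange circles and Ctrl in blue squares, with group means and bars of 1 standard deviation (n = 3). At ZT20 each lies higher in SD, as with Nfil3 at 20.2 FPKM in SD and 10.1 FPKM in Ctrl.

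The inflammatory and lipid targets of the list did not share 1 direction. Cx3cr1, a chemokine receptor of monocytes and macrophages, was lower in SD at ZT20, at 0.497 ± 0.056 FPKM against 3.53 ± 0.72 FPKM in Ctrl (log2 -1.59, adjusted p = 3.48e-17). Ccl2, a monocyte chemokine, was lower at ZT20 as well, at 0.208 ± 0.067 FPKM in SD and 1.51 ± 0.60 FPKM in Ctrl (log2 -1.03, adjusted p = 5.18e-07). Mmp9, a gelatinase stored in neutrophils, was higher at ZT20, at 12.8 ± 0.5 FPKM in SD and 4.28 ± 0.25 FPKM in Ctrl (log2 1.39, adjusted p = 5.54e-19). Il1b, which encodes interleukin 1β, stood at 15.5 ± 0.1 FPKM in SD and 10.7 ± 1.0 FPKM in Ctrl (log2 0.50, adjusted p = 1.02e-07). At the same time summed neutrophil markers were at 1222 FPKM in SD and 230 FPKM in Ctrl, those of alveolar macrophages at 514 FPKM in SD and 229.9 FPKM in Ctrl, of NK cells at 6.72 FPKM in SD and 40.8 FPKM in Ctrl, and of T cells at 10.37 FPKM in SD and 21.01 FPKM in Ctrl. At ZT20 NK and T cell markers thus differed in the direction of Cx3cr1 and Ccl2. So did other lists, among them B cell (34.66 FPKM in SD, 77.34 FPKM in Ctrl) and fibroblast markers (114.9 FPKM in SD, 164.5 FPKM in Ctrl). Monocytes had no marker list. Neutrophil and alveolar macrophage markers differed at ZT20 in the direction of Mmp9 and Il1b. At ZT16 NK (7.49 FPKM in SD, 20.53 FPKM in Ctrl) and T cell markers (9.401 FPKM in SD, 41.74 FPKM in Ctrl) were lower in SD, while Ccl2 was not called. At ZT12 and ZT16 Il1b was called higher in SD while alveolar macrophage markers were lower, as at ZT12 with 398 FPKM in SD and 557.4 FPKM in Ctrl. At ZT24 Il1b was called lower while these markers were higher, at 530.8 FPKM in SD and 269.5 FPKM in Ctrl. Neutrophil markers differed in the direction of Il1b at ZT12, ZT16 and ZT24 but not at ZT0. There Il1b was called lower in SD while neutrophil markers were higher, at 603.9 FPKM in SD and 492.7 FPKM in Ctrl. The part of cell makeup in these differences was not tested. At ZT24 the sign of Mmp9 was the opposite of that at ZT20, at 5.66 ± 0.36 FPKM in SD and 16.9 ± 1.0 FPKM in Ctrl (log2 -1.43), beside neutrophil marker sums of 521 FPKM in SD and 884 FPKM in Ctrl.

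Dbp and Per3, which BMAL1 and CLOCK drive as they drive the REV-ERBs, had smaller amplitudes and later peaks in SD. The same was seen for Nr1d1 and Nr1d2. Dbp and Per3 were also the genes most like Nr1d2 by r. Of the 15 clock genes called rhythmic in both conditions, 10 had a smaller amplitude in SD and 9 a later peak. Among those with a larger amplitude in SD were Hlf (0.7733 in SD, 0.661 in Ctrl) and Bhlhe40 (0.4536 in SD, 0.4003 in Ctrl). For Per2 the difference of rhythm was not called. Whether these genes shared a cause was not tested. Dbp had an amplitude of 2.09 ± 0.08 in SD and 2.45 ± 0.14 in Ctrl, with a peak 0.82 ± 0.29 h later in SD (adjusted p = 0.0235), and Per3 one of 0.99 ± 0.05 in SD and 1.15 ± 0.05 in Ctrl, with a peak 1.17 ± 0.29 h later (adjusted p = 0.00225). The difference of rhythm was not called without ZT4 (adjusted p = 0.199 for Dbp and 0.0601 for Per3), without ZT8 (0.143 for Dbp and 0.0602 for Per3) or with group means as units (0.763 for Dbp and 0.612 for Per3), and for Dbp also not without Ctrl-ZT16 replicate 1 (0.0505) or replicate 3 (0.0513). At ZT8 Dbp stood at 38.8 ± 2.6 FPKM in SD and 77.1 ± 2.3 FPKM in Ctrl (log2 -0.97), where Nr1d1 and Nr1d2 overlapped between the conditions. Of the 14 tested core clock genes, 12 were called higher in SD and 1 lower in the mean over times, beside 34.6% and 35.3% of all genes. A difference of rhythm was called for 4 of the 14, a share near the 30.3% of all genes.

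REV-ERBs act through a corepressor complex and RORs through coactivators. Of 5 genes of the REV-ERB corepressor complex, 2 were called in the mean over times, Gps2 (log2 0.25) and Tbl1xr1 (log2 0.05, which was -0.01 with libraries scaled to equal totals), and Ncor1, Hdac3 and Tbl1x were not, where 34.6% of all genes were called higher and 35.3% lower. At ZT20 4 of the 5 were called higher and Hdac3, the deacetylase of the complex, lower (log2 -0.12); Tbl1xr1 (log2 0.12) was -0.06189 there with equal totals. Of all genes, 33% were called higher at ZT20 and 28.4% lower. Of the 7 tested ROR coactivators, 6 were called higher in the mean over times, against 34.6% of all genes. Crebbp (log2 0.24) and Ep300 (log2 0.23), 2 paralogous acetyltransferases, led them. At ZT20 7 of 7 were called higher, against 33% of all genes. At ZT16 only 1 of the 7 was called higher, against 29.1% of all genes. At ZT24 2 were called higher and 3 lower, against 24.4% and 22.3% of all genes. Medians at ZT20 were 0.22 for the corepressors and 0.34 for the coactivators, against 0.02 for all genes. With libraries scaled to equal totals the median of all genes at ZT20 was -0.14, so these medians are relative to the deposited scaling.

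Of 8 genes listed for REV-ERB protein turnover, 3 were called higher in SD in the mean over times and 3 lower, near the shares of all genes (34.6% and 35.3%). The lower ones included Cdk1, the mitotic kinase that primes REV-ERBα for destruction (log2 -0.996, adjusted p = 4.21e-24). The higher ones included Usp2, a rhythmic deubiquitinase whose action on REV-ERB protein was not examined here (log2 0.30, adjusted p = 9.32e-13). Of 12 genes that make or break down heme, the ligand of both REV-ERBs, 5 were called higher and 4 lower, with a median of 0.0029, again near the shares of all genes. Alas1, the rate-limiting enzyme of heme synthesis outside red cells, was higher by log2 0.32 (adjusted p = 1.01e-21). At ZT20 it stood at 67.0 ± 0.4 FPKM in SD and 42.3 ± 2.0 FPKM in Ctrl. Its amplitude was 0.24 ± 0.04 in SD and 0.61 ± 0.06 in Ctrl, a called difference of rhythm (adjusted p = 0.000191, and 0.5004 with group means as units). Erythroid markers, 4 of 4 called lower in SD, summed to 1841 to 3680 FPKM in SD and 1810 to 4412 FPKM in Ctrl, with none at 0.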

How the data were processed

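Lung RNA of 42 mouse libraries was analysed (TRIzol extraction and an NEBNext Ultra kit, per the labels' protocols). The deposited values are FPKM made by the authors, 1 column per library. Per the submitters' processing notes, HISAT2 2.0.5, featureCounts 1.5.0-p3 and build mm10 were used; no source used here gives settings, strand handling or multi-mapping. FPKM times gene length gave whole multiples of 1 step per library (99.98% to 100% of values of up to 1000 reads within 0.1 of a whole read), from which reads were recovered to state depth only. The steps followed median-of-ratios size factors (largest deviation 8.53e-05 in the log factor), so the deposited FPKM carry that scaling. Symbols of 27 genes turned into dates were restored from gene IDs.

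Tests used limma 3.58.1 (eBayes with trend) under R 4.3.3 on log2(FPKM + 1), 16962 genes with a mean of at least 0.5 FPKM, all 42 libraries as 14 group means, or 21 per condition for rhythm. P-values were adjusted by Benjamini and Hochberg over all tested genes. The code was tested on simulated data. Figures used matplotlib 3.10.9. The receptors, gene lists and tests were chosen with earlier results of these data known. The genes named are the 3 receptors, genes of the lists and, per receptor, the 5 most and 3 least alike genes by r. Some listed genes are not reported here. Replicate numbers did not pair libraries. Alternatives were a pseudocount of 0.1, no filter, equal totals, array weights, the replicate block, group means as units, fewer times, single times, a one-way F test and leaving out each library.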

Additional observations from a re-analysis of the deposited data

Results flagged for a closer look

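The SD minus Ctrl difference was not the same at the 7 times for any of the 3 receptors, by the limma F test of the interaction with time (adjusted p = 4.949e-22 for Nr1d1, 3.156e-16 for Nr1d2 and 1.257e-05 for Rora). The 24 h rhythm differed between SD and Ctrl for Nr1d1 (amplitude 1.58 in SD and 2.54 in Ctrl, adjusted p = 1.15e-05) and Nr1d2 (amplitude 1.13 in SD and 1.71 in Ctrl, adjusted p = 0.0001294). Both kinds of difference were common among all genes, at 81.7% for the interaction and 30.3% for the rhythm. No explanation was tested.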

How the results depend on the processing

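Of 2115 recomputed values of the 45 receptor results, 2099 kept direction and call. For most results 42 of the settings left out 1 library each, often a library outside the groups compared, so this share is high by construction. Scaled to equal totals, differences at ZT24 lost their call for Nr1d1 (0.12) and Rora (0.12). With group means as units, the averaged difference of Nr1d1 (0.66) and Nr1d2 (0.41), the SD rhythm of Nr1d1 (1.58, unadjusted p = 0.00103, adjusted p = 0.817) and Nr1d2 (1.13, unadjusted p = 0.000204, adjusted p = 0.490) and the difference of rhythm (adjusted p = 0.3543 and 0.4536) were not called by limma. Genes called then were 2875 for the average, 2 for the SD rhythm, 385 for the Ctrl rhythm and 0 for the difference of rhythm (1680 at an unadjusted p under 0.05; the main counts were 11857, 1560, 9767 and 5140). The one-way F test called Rora in SD (0.34) and 13516 genes. With only 6 libraries Rora at ZT24 (0.19) was not called. Leaving out single libraries, the uncalled ZT8 differences ran from -0.06687 to 0.01608 for Nr1d1 and -0.07567 to 0.01079 for Nr1d2, and Rora at ZT24 from 0.13 to 0.22. Among settings chosen after the data were seen, the SD rhythm was called for 3250 genes without ZT8 and for 3322 without ZT20, where Rora was called too (0.15). Averages that turned sign were Thra at ZT0, ZT4 and ZT20 only (-0.0536), Tbl1xr1 at equal totals (-0.01359, and -0.06189 at ZT20), Dbp without ZT4 (0.006263) or ZT8 (0.0288) and Npas2 without ZT16 (-0.005601). The cause was not tested.

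The replicate numbers did not pair the libraries: correlations of deviations between SD and Ctrl libraries of 1 number and time ran from -0.0489 to 0.0803. With the replicate block, 11888 genes were called in the average, Nr1d1 kept an adjusted p of 1.982e-22, and no receptor call changed. Depth limited Nr1d1 most, at 124 reads in its lowest library.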
